A study of Arabidopsis thaliana with 8 samples.

Results

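The ribosome of the chloroplast is of the bacterial type, with a large and a small subunit, and makes the proteins that the plastid genome encodes, among them core subunits of the photosystems. Many of its proteins are encoded in the nucleus, made in the cytosol and imported with a transit peptide. Their genes are therefore a nuclear contribution to plastid translation. Spots of the array that the platform annotation maps to exactly 1 gene were searched for 6 such genes, by locus, and all 6 were found, each on 1 spot, out of 689 loci on single-gene spots and 3439 spots in all. The large subunit was represented by AT4G01310 (L5), AT3G54210 (L17), AT5G65220 (RPL29) and AT1G29070 (RPL34). The small subunit was represented by AT3G13120 (S10) and AT1G64510 (S6). The annotation tables give these genes as loci alone, and the protein families are general knowledge of the Arabidopsis genome.

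RNA of an antisense line of tatA, also called a tata mutant in the labels, was compared with RNA of wild type (WT) on single-colour arrays, 4 of each. TatA belongs to the twin-arginine translocase, which carries folded proteins into the thylakoid, the inner membrane system of the chloroplast. Both groups were Arabidopsis thaliana of ecotype Columbia 0 and total RNA was used. Tissue, age, growth conditions, the promoter of the antisense construct and the number of independent lines are not given in the labels, nor whether replicates came from separate plants, so p-values measure the spread between these arrays. Of the 25 marker genes listed for green tissue, root, pollen and seed, 0 lay on single-gene spots, and the tissue was not checked.

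Spot intensity is on a linear scale that ends at 100 on every array, and values of exactly 0 were present on 209 to 248 spots of the tatA arrays and on 172 to 192 spots of the WT arrays. Array medians were 0.365 to 0.390 in tatA and 0.429 to 0.531 in WT. Log2 differences below are tatA minus WT after quantile normalization, which gives every array the same distribution and so reports each gene relative to the rest of its array. On the deposited scale the median row lay at -0.47. Within a group, arrays of the same replicate pair (1-2 or 3-4) were more alike than arrays of different pairs. The limma consensus correlation within pairs was 0.546, a single value pooled over all rows, pairs and groups. The labels do not say what the numbers mark. Values are therefore also given within replicates 1-2 and within replicates 3-4.

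Between the groups, 1 of the 4 ribosomal genes that could be tested passed, with a larger value in replicates 1-2 than in replicates 3-4. AT4G01310 (L5) was 2.01-fold higher in tatA than in WT, a log2 difference of 1.004 (SE 0.32, limma adjusted p = 0.0398). AT3G54210 (L17) was lower on every tatA array on the deposited scale and did not pass once the arrays were normalized to each other. The small subunit genes AT3G13120 (S10) and AT1G64510 (S6) did not pass, and AT5G65220 (RPL29) and AT1G29070 (RPL34) were at 0 on most arrays. Among all rows tested, 1046 of 3261 passed, which is 32.1%, with 15.3% higher and 16.8% lower in tatA. A count of 1 of 4 is therefore near the share of all rows. In these bulk samples, fewer cells of a type and less RNA per cell cannot be told apart.

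**Figure D1:**
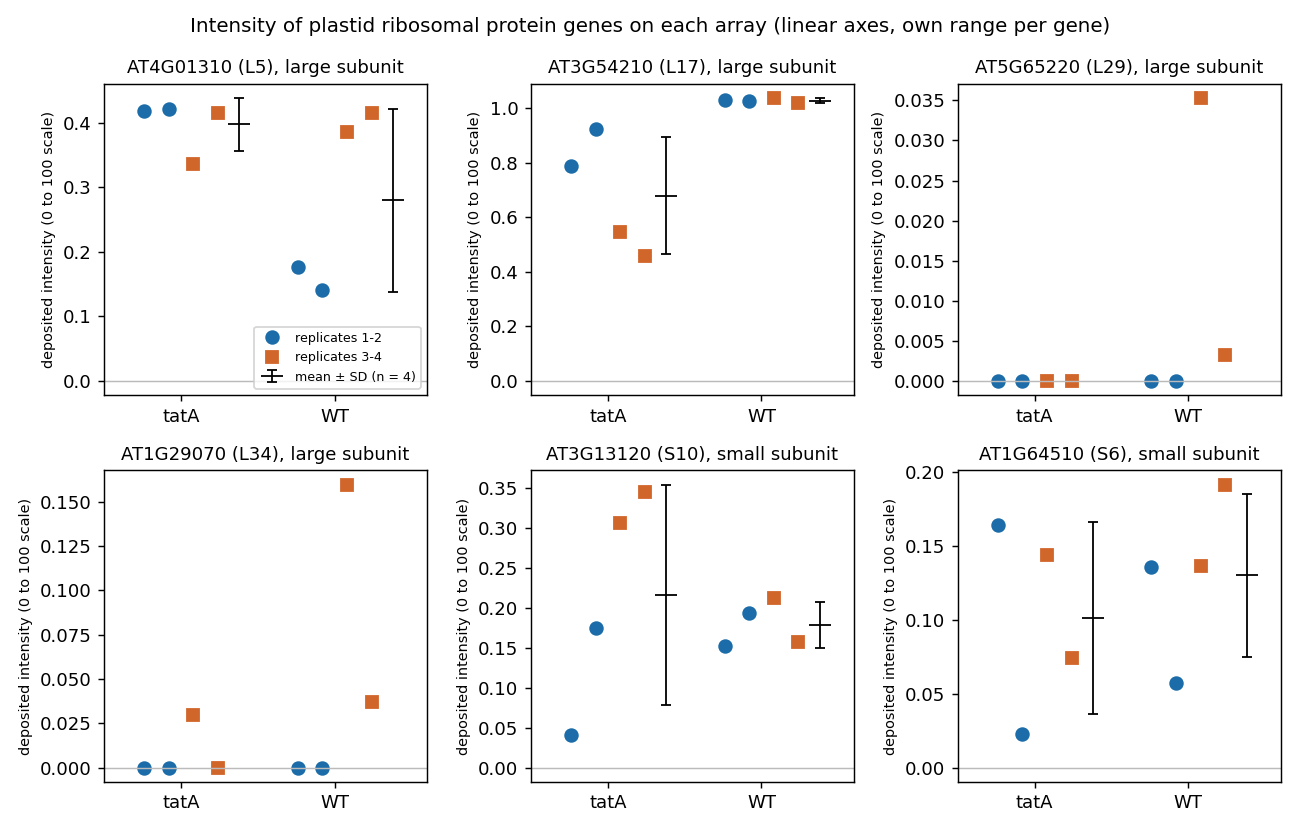
Deposited intensity (linear axis, own range in each panel) of the 6 ribosomal protein genes on each tatA and WT array, with circles for replicates 1-2, squares for replicates 3-4, and black bars for mean ± SD of 4 arrays, left out for genes with values at 0. For AT4G01310, the 4 tatA arrays sit between 0.336 and 0.421, while the WT arrays split into 0.141 and 0.176 in replicates 1-2 and 0.387 and 0.416 in replicates 3-4.

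L5 binds 5S rRNA in the central protuberance of the large subunit of the bacterial ribosome, and AT4G01310 encodes its plastid counterpart. The deposited intensity of AT4G01310 was 0.418, 0.421, 0.336 and 0.416 in tatA replicates 1 to 4, against 0.176, 0.141, 0.387 and 0.416 in WT replicates 1 to 4. The tatA arrays were alike, and the WT arrays fell into a low and a high pair, the high pair overlapping with tatA. The means were 0.398 ± 0.0413 in tatA and 0.280 ± 0.141 in WT (SD, n = 4 each). After quantile normalization the log2 values were -1.07, -1.05, -1.46 and -1.08 in tatA, against -2.52, -2.90, -1.69 and -1.56 in WT. On that scale the groups did not overlap, as was so for 35.5% of all rows. The 95% interval of the log2 difference of AT4G01310 ran from 0.28 to 1.72.

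Within the replicate pairs the difference of AT4G01310 was unequal. In a fit of 4 cells, group by pair, it was 1.65 in replicates 1-2 (SE 0.24, limma adjusted p = 0.00256) and 0.36 in replicates 3-4 (SE 0.24, adjusted p = 0.263). In replicates 1-2 of that fit, 14.5% of all rows passed as higher in tatA. The values of the pairs differed by -1.29 (SE 0.34, limma adjusted p = 0.0522), which missed the threshold that 11.7% of all rows passed. The WT pairs differed from each other by 1.08, replicates 3-4 minus replicates 1-2 (limma adjusted p = 0.0240), about as much as tatA differed from WT. Of all rows, 18.2% passed in that comparison of WT arrays. The tatA pairs of AT4G01310 differed by -0.21 (limma adjusted p = 0.615). These p-values rest on the spread within pairs.

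The call on AT4G01310 depended on what was taken as a replicate. A fit that took the replicate number as a block gave a limma adjusted p of 0.0620. Treating the 2 arrays of a pair as correlated (a random block) gave 0.110, in a fit where 16.5% of all rows passed, and averaging each pair gave 0.257. The call was kept with the replicate number as a random block (limma adjusted p = 0.0295) and with the pair, 1-2 or 3-4, as a fixed term (adjusted p = 0.0263, in a fit where 40.6% of all rows passed). The call was also lost on the deposited scale (log2 difference 0.66, limma adjusted p = 0.175). It was lost in 6 of 8 fits that left out 1 array, namely without any of the 4 tatA arrays or without WT replicate 1 or 2 (adjusted p 0.0537 to 0.0867). The difference was positive under every one of the 28 alternatives run, from 0.36 to 1.65. Those that changed only the variance model or the block share the value 1.004 by construction, and all draw on the same 8 arrays. On the deposited scale the mean intensity in replicates 3-4 was 0.376 in tatA and 0.401 in WT, so the sign in that pair depended on normalization.

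**Figure D2:**
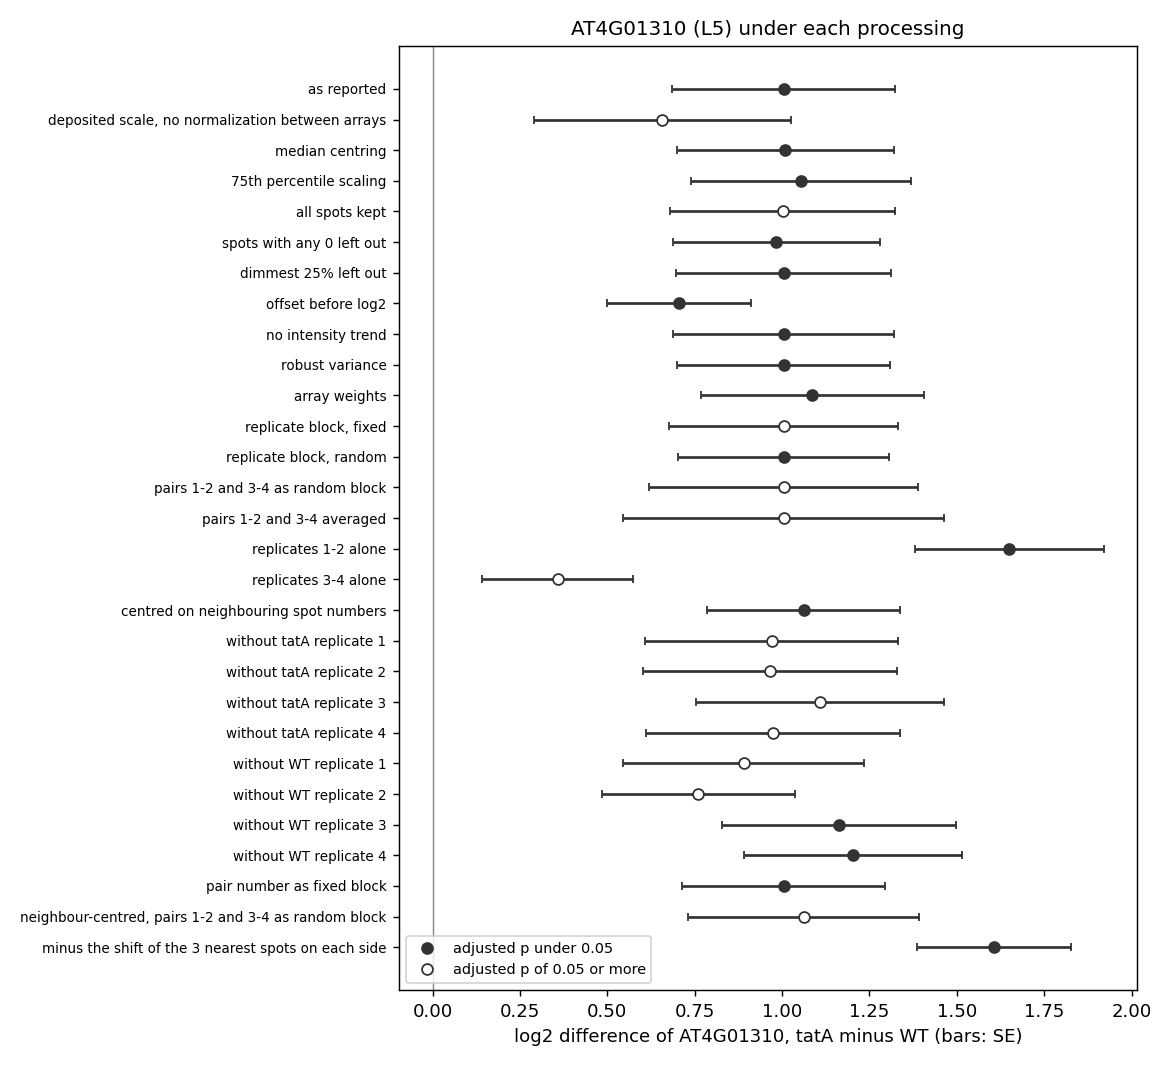
Log2 difference of AT4G01310 between tatA and WT (x axis, bars are SE) as reported and under each alternative processing (rows), filled where the limma adjusted p was under 0.05. All values lie above 0, between 0.36 in replicates 3-4 alone and 1.65 in replicates 1-2 alone, and 13 of the 28 alternatives did not pass.

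L17 lies near the exit of the polypeptide tunnel in the large subunit of the bacterial ribosome. Its plastid counterpart AT3G54210 had intensities of 0.787, 0.923, 0.546 and 0.458 in tatA replicates 1 to 4, against 1.03, 1.03, 1.04 and 1.02 in WT replicates 1 to 4. The WT arrays were nearly equal, and every tatA array was lower. The means were 0.678 ± 0.214 in tatA and 1.03 ± 0.00806 in WT (SD, n = 4 each), a ratio of 0.660. Of all rows tested, 33.7% had every tatA value under every WT value on this scale. On the deposited scale the log2 difference of AT3G54210 was -0.66 (limma adjusted p = 0.0350), beside a median over all rows of -0.47, and 33.1% of rows passed in that direction there.

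After quantile normalization AT3G54210 had log2 values of -0.14, 0.08, -0.74 and -0.95 in tatA, against -0.03, -0.04, -0.30 and -0.29 in WT. The groups then overlapped, since tatA replicate 2 was the highest of the 8 arrays. The difference was -0.27 (SE 0.23, limma adjusted p = 0.385), with a 95% interval from -0.79 to 0.25. It was 0.0070 in replicates 1-2 (SE 0.12) and -0.55 in replicates 3-4 (SE 0.12, limma adjusted p = 0.0101 in the fit of 4 cells, which 24.3% of all rows passed with lower values in tatA). For AT3G54210 it was the tatA pairs that stood apart, by -0.81, replicates 3-4 minus replicates 1-2 (limma adjusted p = 0.00819, a threshold passed by 12.9% of rows), while the WT pairs differed by -0.26 (adjusted p = 0.205). The difference between the pairs in tatA minus WT was -0.56 (SE 0.17, limma adjusted p = 0.0819) and did not pass.

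**Figure D3:**
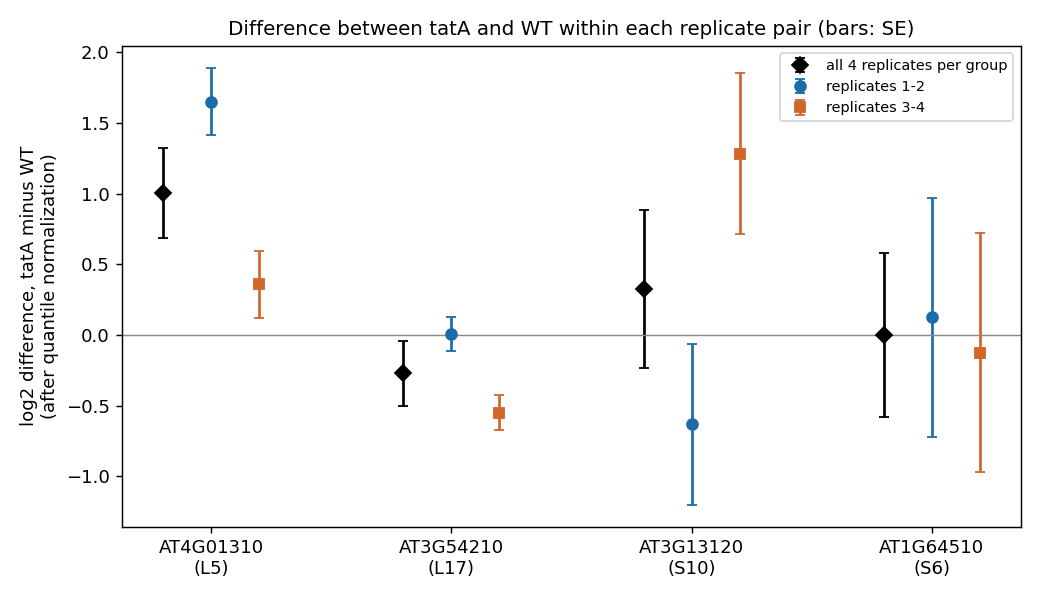
Log2 difference between tatA and WT after quantile normalization (y axis, bars are SE) for the 4 genes tested (x axis), over all arrays (diamonds) and within replicates 1-2 (circles) and 3-4 (squares). AT4G01310 lies above 0 in both pairs, at 1.65 and 0.36, AT3G54210 lies at 0.0070 and -0.55, and AT3G13120 lies on opposite sides of 0, at -0.63 and 1.28.

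The other large subunit genes gave little signal. RPL29 belongs to the proteins at the rim of the exit tunnel in the bacterial ribosome. AT5G65220 (RPL29) was at 0 on all 4 tatA arrays and on WT replicates 1 and 2, with 0.0353 on WT replicate 3 and 0.00318 on WT replicate 4. RPL34 is a small basic protein of the bacterial large subunit. AT1G29070 (RPL34) was at 0 on tatA replicates 1, 2 and 4 and at 0.0299 on tatA replicate 3. In WT, AT1G29070 was at 0 on replicates 1 and 2, at 0.160 on replicate 3 and at 0.0370 on replicate 4. For both genes every value above 0 came from replicates 3-4.

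The fit left out every spot with more than 4 zeros among the 8 arrays (5.15% of all spots), and AT5G65220, at 0 on 6 arrays, and AT1G29070, at 0 on 5, were among them. An exact two-sided permutation test of the mean intensity gave p = 0.429 for each of them. The smallest p possible with 4 against 4 arrays is 0.0286 without ties, but values tied at 0 put it out of reach here. For AT5G65220, 0.429 is itself the smallest p that its values allow. Neither gene could have come under 0.05 however its values fell between the groups, so these tests decide nothing. With all spots kept, limma gave a log2 value of -1.06 (SE 0.87, adjusted p = 0.399) for AT5G65220 and of -1.92 (SE 2.52, adjusted p = 0.597) for AT1G29070. These sizes rest on the value set for zeros, and no fold is given. Under that setting AT4G01310 did not pass (limma adjusted p = 0.0534), and 29.8% of all rows did.

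In the small subunit, S10 lies in the head of the bacterial subunit and also acts in transcription antitermination in Escherichia coli. Its plastid counterpart AT3G13120 had intensities of 0.0404, 0.174, 0.306 and 0.345 in tatA replicates 1 to 4, against 0.152, 0.193, 0.212 and 0.157 in WT replicates 1 to 4. The tatA arrays spanned a wide range that enclosed all 4 WT arrays. The means were 0.216 ± 0.138 in tatA and 0.179 ± 0.0287 in WT (SD, n = 4 each). The log2 difference was 0.33 (SE 0.56, limma adjusted p = 0.676), with a 95% interval from -0.94 to 1.59. Within pairs the values of AT3G13120 were -0.63 in replicates 1-2 and 1.28 in replicates 3-4 (SE 0.57 each, limma adjusted p = 0.448 and 0.108 in the fit of 4 cells). The difference between the pairs was 1.91 (SE 0.80, limma adjusted p = 0.170).

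S6 pairs with S18 on the platform of the bacterial small subunit. Its plastid counterpart AT1G64510 had intensities of 0.164, 0.0228, 0.144 and 0.0740 in tatA replicates 1 to 4, against 0.136, 0.0571, 0.136 and 0.191 in WT replicates 1 to 4. In both groups replicate 2 was the lowest array, and the groups overlapped throughout. The means were 0.101 ± 0.0650 in tatA and 0.130 ± 0.0551 in WT (SD, n = 4 each). The log2 difference of AT1G64510 was 0.00014 (SE 0.58, limma adjusted p = 1), with a 95% interval from -1.32 to 1.32. That interval is wide enough to hold the difference seen for AT4G01310, and the value for AT1G64510 does not show that the gene was unchanged. Replicates 1 and 2 differed in AT1G64510 by 2.85 on the log2 scale in tatA and by 1.25 in WT, on the deposited scale.

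The 4 tested genes differed in their spread within groups, which includes any shift between the replicate pairs. The residual SD within groups was 0.48 for AT4G01310, 0.36 for AT3G54210, 0.88 for AT3G13120 and 0.86 for AT1G64510 on the log2 scale, with a median of 0.34 over all rows. The residual SD was smaller than that of AT3G13120 in 86.1% of rows and smaller than that of AT1G64510 in 85.5%. Dim spots had larger spreads in general. The share of spots dimmer than AT3G13120 was 10.003% to 47.1% on the tatA arrays, with 40.0% and 47.1% in replicates 3-4, and 16.7% to 23.5% on the WT arrays. For AT1G64510 it was 8.69% to 22.8% on the tatA arrays and 9.54% to 19.4% on the WT arrays. These shares describe the signal of the spots and not transcript levels, since spots differ in their probes.

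**Figure D4:**
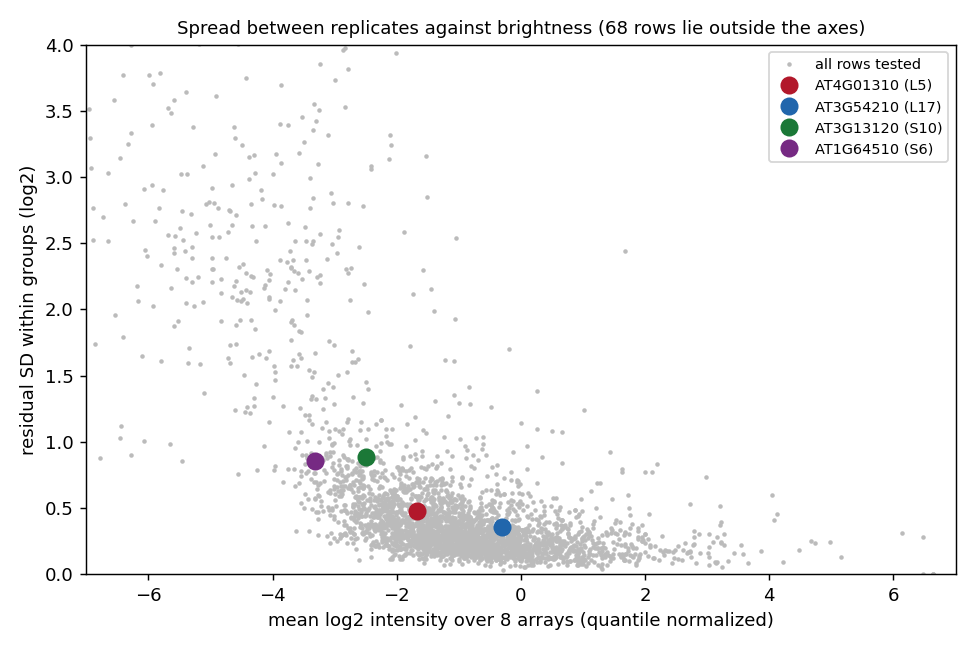
Residual SD within groups on the log2 scale (y axis) against mean log2 intensity over the 8 arrays (x axis) for all rows tested (grey) and the 4 ribosomal protein genes (coloured), after quantile normalization. The small subunit genes AT3G13120 and AT1G64510 lie at 0.88 and 0.86, above AT4G01310 at 0.48 and AT3G54210 at 0.36.

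The 4 profiles were not alike. The root mean square difference between 2 genes, over the 8 arrays and with each gene centred on its mean, ran from 0.84 for AT4G01310 and AT3G54210 to 1.26 for AT3G13120 and AT1G64510. Among 645 other named genes, the median difference was 0.83 from AT4G01310, 0.57 from AT3G54210, 0.91 from AT3G13120 and 0.88 from AT1G64510. Named genes nearest in profile to AT4G01310 were CML41, a calmodulin-like protein, at 0.29, and AT1G79220 at 0.30. CML41 was higher in tatA by 1.29 and AT1G79220 by 0.69 (limma adjusted p = 0.00117 and 0.0343). Both had their larger difference in replicates 1-2, with 1.58 against 1.01 in replicates 3-4 for CML41, and 1.197 against 0.18 for AT1G79220. Both genes were picked for likeness on these same arrays, so a like difference, its p-value and its pair pattern follow largely from the choice.

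Nearest to AT3G54210 were AT2G37000 and NTRC, a chloroplast thioredoxin reductase, both at a root mean square difference of 0.12. For NTRC the log2 value was 0.020 in replicates 1-2 and -0.61 in replicates 3-4, beside 0.0070 and -0.55 for AT3G54210. Nearest to AT3G13120 were AT3G27110 at 0.44 and AT3G15140 at 0.47, and nearest to AT1G64510 were AT2G48130 at 0.46 and AT4G03090 at 0.52. The genes nearest to the small subunit genes were thus farther from them than those nearest to the large subunit genes. The measure is not scaled for spread, and the small subunit genes had the larger residual SD. Their median difference from all other named genes was also larger, at 0.91 and 0.88, against 0.83 and 0.57 for the large subunit genes. Likeness over 8 arrays includes whatever the arrays share. The match of NTRC to AT3G54210 within the pairs likewise follows largely from its choice by likeness.

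Spots with neighbouring numbers were set beside each gene, as the 3 listed spots on each side. Around AT4G01310 the 6 neighbours had a median log2 value of -0.21 in replicates 1-2 and -0.92 in replicates 3-4, and 1 of 6 was higher in tatA in each pair. AT4G01310 stood above all 6 in both pairs. With the median shift of these 6 spots on each array taken off, its log2 difference was 1.61 (SE 0.22, limma adjusted p = 0.000802, in a fit where 30.5% of all rows passed). Centred on the running median of 50 spots on each side it was 1.06 (limma adjusted p = 0.0178), and treating pairs as correlated in addition gave an adjusted p of 0.0547.

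Around AT3G54210 the neighbours had a median of -0.51 in replicates 1-2 and -1.08 in replicates 3-4, and 5 of 6 were lower in tatA in each pair, as in the plot of neighbouring spots. With their shift taken off, AT3G54210 had a log2 value of 0.47 (SE 0.14, limma adjusted p = 0.0354) and passed as higher in tatA, the opposite direction to that on the deposited scale. Around AT3G13120 the median was 0.063 in replicates 1-2 and 0.50 in replicates 3-4, and with the neighbours' shift taken off AT3G13120 had a value of 0.075 (limma adjusted p = 0.913). For AT1G64510 that value was 0.058 (limma adjusted p = 0.942). The neighbours of AT4G01310, AT3G54210 and AT3G13120 thus moved between the pairs in the same direction as the gene, and their part in the results was not tested.

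**Figure D5:**
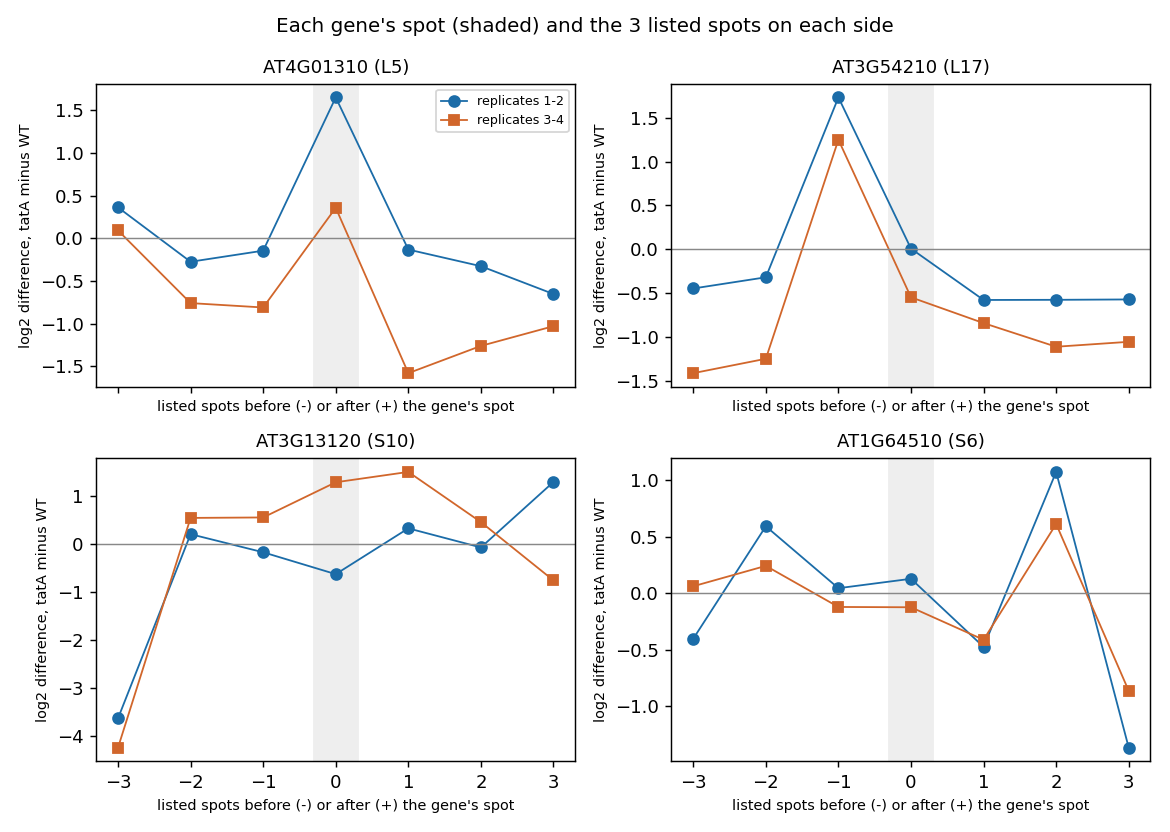
Log2 difference between tatA and WT (y axis, quantile normalized) for the spot of each tested gene (shaded, position 0) and the 3 listed spots before and after it (x axis), in replicates 1-2 (circles) and 3-4 (squares). AT4G01310 lies above all 6 of its neighbours in both pairs. In both pairs AT3G54210 lies below the spot just before it, at 1.73 and 1.25, and above its other neighbours.

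Around each of the genes mostly at 0, 2 of the 6 listed neighbours were at 0 on at least 1 array and 4 were not, where 12.1% of all spots had a 0. The same counts held around AT3G13120, which was above 0 on every array. Around AT4G01310, AT3G54210 and AT1G64510, 0 of 6 neighbours had a 0. The spot after that of AT1G29070 was at 0 on the same 5 arrays, and the next was at 0 on 7 arrays. The third listed spot after AT1G29070 was bright, with intensities of 48.7, 48.0, 90.5 and 88.9 in tatA replicates 1 to 4, against 27.6, 31.5, 22.6 and 20.7 in WT replicates 1 to 4. Near AT5G65220, a neighbour was at 0 on 3 arrays and another on 2, all of them of replicates 3-4. These include WT replicate 3 and, for the first, WT replicate 4, where AT5G65220 itself was above 0. The part of neighbouring spots in the zeros was not tested.

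Few other genes of the fixed lists for plastid translation lay on single-gene spots. The lists may not be complete, and named genes outside them were not searched for other roles in plastid translation. Of 27 listed large subunit genes 4 lay on single-gene spots, of which 2 were tested, with 1 higher and 0 lower in tatA and a median log2 value of 0.37. Of 14 listed small subunit genes 2 lay on such spots and both were tested, with 0 passing and a median of 0.16. Over all rows the median was -0.09, with 15.3% passing as higher and 16.8% as lower in tatA. With 2 genes tested on each list, a median is only the midpoint of 2 values already given. For the large subunit these went opposite ways, at 1.004 for AT4G01310 and -0.27 for AT3G54210. Of 12 plastid translation factors 0 were on single-gene spots. Of 12 factors of plastid rRNA maturation and ribosome assembly, PAC (AT2G48120), a plastid protein needed for ribosomal RNA processing, was tested.

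PAC had intensities of 0.433, 0.451, 0.388 and 0.269 in tatA replicates 1 to 4, against 0.602, 0.466, 0.764 and 0.872 in WT replicates 1 to 4. Every tatA array was lower than every WT array on the deposited scale, as was so for 33.7% of all rows tested. After quantile normalization the log2 value of PAC was -0.45 (SE 0.21, limma adjusted p = 0.137), with -0.031 in replicates 1-2 and -0.87 in replicates 3-4. PAC thus resembled AT3G54210 in having its lower values in tatA replicates 3-4, and it did not pass. The WT intensities of PAC were higher in replicates 3-4 than in replicates 1-2, while those of AT3G54210 were nearly equal.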

How the data were processed

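The deposited table gives linear spot intensity, 1 column for each of the 8 arrays. The authors' steps before deposit (scanning, background, scaling) are not given in the sources used. Sample titles gave group and replicate number. Gene names come from the platform annotation, which gives 1 gene for 692 spots, 690 of them matched to a locus of the TAIR10.1 RefSeq table, and several genes for 870 spots, which were not named. The array names no genome build, so coordinates are left out.

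Spots at 0 on more than 4 of 8 arrays were left out, other zeros took the lowest positive intensity found on that array, and log2 values were quantile normalized. Rows of 1 locus were averaged, leaving 3261. The test was that of limma 3.58.1, run in R 4.3.3 (intensity trend, two-sided, group as the only term), with Benjamini-Hochberg adjustment over all rows and a threshold of 0.05. The fit was tested on simulated data whose arrays were drawn independently, so that test does not cover the correlation within replicate pairs. Pair-specific values come from 1 limma fit of 4 cells (group by pair), added after the data were seen. Figures were drawn with matplotlib 3.10.9.

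The members, gene lists and tests were chosen with earlier results of these data known. Named are the 6 genes, other tested genes of the lists, and the 2 named genes nearest in profile to each tested gene. No gene was described as a ribosomal protein by the text of the tables. Deviations from the group means correlated between same-numbered tatA and WT arrays at 0.284, 0.311, 0.266 and 0.337, and each tatA array correlated best with the WT array of its number, so that alternative fits took the number as a block. Alternatives covered scaling, zeros, dim rows, variance model, array weights, blocks, single pairs, single arrays and neighbouring spots.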

Additional observations from a re-analysis of the deposited data

Results flagged for a closer look

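In 12 groups of 4 arrays (6 genes, tatA and WT), 3 had an array far from the others. Chance gives about 1 in 20 for groups without ties, a rate that does not apply to the groups of AT5G65220 and AT1G29070, whose gaps follow from values tied at 0. For AT4G01310, tatA replicate 3 lay at 0.336 and the other tatA arrays between 0.416 and 0.421, a gap of 0.941 of the whole range. For AT5G65220, WT replicate 3 lay at 0.0353 and the other WT arrays at 0 or 0.00318, a gap of 0.91 of the range. For AT1G29070, tatA replicate 3 lay at 0.0299 and the other tatA arrays at 0, a gap of 1 times the range.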

How the results depend on the processing

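The number of arrays and the dim signal limit every value here. The count of rows passing, 1046 as reported, was 537 with replicate pairs taken as a random block, 57 with the pairs averaged and 571 with that random block after centring on neighbouring spots, and 784 to 951 with 1 array left out. It was 932 in replicates 1-2 alone and 1444 in replicates 3-4 alone, of 3261 rows in each. The large subunit count of 1 became 0 with all spots kept, with a fixed replicate block, and with pairs averaged or taken as a random block (centred on neighbours or not), and was 0 to 1 with 1 array left out. It became 2 with the shift of the 3 nearest spots on each side taken off. On the deposited scale it stayed at 1, but there AT3G54210 passed and AT4G01310 did not. The small subunit count was 0, with 1 array left out too, and 1 in replicates 3-4 alone, where AT3G13120 had 1.28 (limma adjusted p = 0.0206). That is the fit in which 1444 of 3261 rows passed, and in which AT3G54210 passed as well.

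AT4G01310 did not pass on the deposited scale (0.66), in replicates 3-4 alone (0.36), with all spots kept (1.002), with a fixed replicate block or with pairs averaged or as a random block (1.004 each), or with that block after centring on neighbours (1.06). A random replicate block and the pair as a fixed term kept the call (limma adjusted p = 0.0295 and 0.0263), and neither replicate block changed the call of AT3G54210, AT3G13120 or AT1G64510. With 1 array left out its value was 0.76 to 1.203. AT3G54210 passed on the deposited scale (-0.66) and in replicates 3-4 alone (-0.55), and changed sign in replicates 1-2 alone (0.0070), centred on 50 neighbours on each side (0.035, also with pairs as random block) and with the shift of the 3 nearest spots on each side taken off (0.47, passing as higher). With 1 array left out it was -0.45 to -0.10. AT3G13120 changed sign on the deposited scale (-0.10), in replicates 1-2 alone (-0.63) and without tatA replicate 4 (-9.8e-05), with up to 0.91 when 1 array was left out. AT1G64510, at 0.00014, had negative values on the deposited scale (-0.59), with median centring (-0.23), 75th percentile scaling (-0.19), all spots kept (-0.019), spots with any 0 left out (-0.23), replicates 3-4 alone (-0.13) and centring on 50 neighbours (-0.061, also with the pairs), and -0.35 to 0.42 with 1 array left out. Mean intensity differences were -0.0128 to -0.00106 for AT5G65220 and -0.0581 to -0.00484 for AT1G29070 with 1 array left out. AT3G13120 and AT1G64510 have no value with the dimmest 25% of rows left out, being among them. Apart from what the construction shows, the cause was not tested.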
